A study of Homo sapiens with 6 samples.

Results

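The 8 genes described here are 6 metallothioneins (MT1E, MT1F, MT1G, MT1M, MT1X and MT2A), the metal-sensing transcription factor MTF1 and the zinc exporter SLC30A1. They were taken by symbol from a count table of 28265 gene rows, and all 8 were found there. PolyA RNA was sequenced from MDA-MB-231 cells and from MDA-MB-231GlnIND cells. MDA-MB-231 is an established human cell line from a triple-negative breast tumour, and MDA-MB-231GlnIND is its derivative that grows without glutamine. The parental cells were grown in glutamine-replete RPMI 1640 with fetal bovine serum. The GlnIND cells had spent more than 6 weeks in glutamine-free RPMI 1640 with dialysed fetal bovine serum. Cell population, glutamine supply and serum type thus differed together and cannot be told apart. Each of the 2 groups had 3 libraries. Separate cultures are not stated in the labels. The p-values therefore reflect the spread between libraries alone, which may be technical.

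Metallothioneins are small cysteine-rich proteins of the cytosol that bind zinc and copper and, on exposure, cadmium. Their human genes stand side by side in a cluster on chromosome 16. When free zinc rises, MTF1 binds metal response elements in their promoters and in that of SLC30A1, which moves zinc out of the cell across the plasma membrane. Glucocorticoids and oxidants are also known to raise metallothionein transcripts.

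Promoters are shown for the members the results turn on, since metal response elements are the known link between MTF1 and its targets. The sequences are from RefSeq (GRCh38.p14), which held 4 of the 8 members, and each is the 250 bases before the gene's start, read on the gene's strand. Capitals mark matches to the core of the element, TGCACNC or TGCGCNC, on either strand, where N is any base. The MT2A stretch is chr16:56608334-56608583 on the plus strand, MT1X is chr16:56682220-56682469 on the plus strand, SLC30A1 is chr1:211579162-211579411 on the minus strand and MTF1 is chr1:37859593-37859842 on the minus strand.
MT2A: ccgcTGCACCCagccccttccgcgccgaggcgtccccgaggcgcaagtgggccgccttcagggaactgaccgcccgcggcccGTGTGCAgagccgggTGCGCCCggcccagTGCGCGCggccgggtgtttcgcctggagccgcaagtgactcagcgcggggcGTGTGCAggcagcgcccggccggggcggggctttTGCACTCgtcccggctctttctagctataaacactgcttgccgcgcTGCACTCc
MT1X: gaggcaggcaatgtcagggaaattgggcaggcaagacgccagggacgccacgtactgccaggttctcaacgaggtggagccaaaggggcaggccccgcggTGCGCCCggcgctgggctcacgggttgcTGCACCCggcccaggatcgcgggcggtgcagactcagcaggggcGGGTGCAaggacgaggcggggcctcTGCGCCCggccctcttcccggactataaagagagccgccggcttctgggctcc
SLC30A1: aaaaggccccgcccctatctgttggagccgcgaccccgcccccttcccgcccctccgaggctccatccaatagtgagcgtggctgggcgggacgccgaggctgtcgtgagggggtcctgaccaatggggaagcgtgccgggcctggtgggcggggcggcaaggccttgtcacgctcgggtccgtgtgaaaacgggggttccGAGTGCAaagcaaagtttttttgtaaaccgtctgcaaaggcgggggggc
MTF1: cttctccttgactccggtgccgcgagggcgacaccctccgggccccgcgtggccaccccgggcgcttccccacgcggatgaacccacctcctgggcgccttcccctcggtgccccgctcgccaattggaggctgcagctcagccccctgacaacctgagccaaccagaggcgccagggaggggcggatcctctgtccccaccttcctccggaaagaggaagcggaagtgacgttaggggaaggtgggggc
MT2A held 7 matches, the nearest of them 8 to 2 bases before the start and the farthest 246 to 240 bases before it. MT1X held 4 matches, between 150 and 47 bases before the start. SLC30A1 held 1 match, 49 to 43 bases before the start, and MTF1 held 0. The metallothionein genes outside the members that the table held were MT1H with 8 matches and MT1B and MT4 with 3 each, and these had 1, 0 and 0 counts over all 6 libraries. Of 35116 RefSeq promoters of the same length, 24.83% held at least 1 match, 0.3702% at least 4 and 0.03132% at least 7. A match is a run of letters and was not tested for binding in these cells. MT1E, MT1F, MT1G and MT1M were not in the promoter table.

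Total counts were 18256219 to 21741371 in the parental libraries and 21276815 to 24594248 in the GlnIND libraries. Levels are given as CPM, the count of a gene relative to the size of its library, scaled with TMM factors, which set the bulk of genes level between libraries. A floor of 6 counts corresponded to 0.230 to 0.343 CPM, and was set at 6 because low counts were mostly even, as happens when mates of a pair are counted singly. Of the markers of the line, VIM, CD44, EGFR, KRT8 and KRT18, all 5 were present. Their sum was 5638 to 6210 CPM in parental and 7458 to 7598 CPM in GlnIND libraries, most of it VIM (means 3979 and 6077 CPM). By the edgeR test used below, VIM and EGFR were called higher in GlnIND libraries and CD44, KRT8 and KRT18 lower. The CD44 call was lost when scaled by library totals alone (log2 fold change -0.15, adjusted p = 0.0564). It was also lost when the median shift of neighbouring genes was removed (-0.02, 0.811). Mean CD44 went from 969 to 785 CPM, KRT8 from 266 to 123 CPM and KRT18 from 284 to 104 CPM. ESR1, PGR and CDH1 had at most 8 counts in any library. ERBB2 was at 31.5 to 41.4 CPM in parental and 61.8 to 65.2 CPM in GlnIND libraries. EPCAM was at 12.0 to 17.2 CPM in parental and 1.88 to 2.61 CPM in GlnIND libraries. Of the other cells' markers, immune genes summed to 0.229 to 0.728 and 0.583 to 0.691 CPM in parental and GlnIND libraries, with CD3E at 0. The sums of 3 endothelial genes were 2.40 to 2.68 and 3.95 to 4.71 CPM. Those of 5 fibroblast genes were 5.03 to 7.33 and 15.2 to 17.6 CPM, led by COL1A1 and PDGFRB. The part of these differences in the results below was not tested, and in bulk RNA fewer cells of a type and less RNA per cell cannot be told apart.

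The comparison asked which transcripts accompany long-term growth without glutamine. In GlnIND cells MT2A was 2.03-fold, MT1X 2.09-fold and MT1E 1.21-fold higher, and MTF1 and SLC30A1 were not called. By edgeR's quasi-likelihood test at a Benjamini-Hochberg adjusted p under 0.05, 3 of the 8 members rose (MT2A, MT1X and MT1E), 0 fell, 3 were not called (MT1F, MTF1 and SLC30A1) and 2 were too low to be tested (MT1G and MT1M). Of the 6 tested members, 0 were lower at an unadjusted p under 0.05 in that fit. DESeq2 was run on the same filtered genes and also called 0 lower. Neither fit could call MT1M, with 19 parental counts against 1 GlnIND count, because the filter on low counts had removed it. Over all 13949 tested genes 56.3% were called, 28.4% higher and 27.9% lower, so a called gene was common in this comparison. The median log2 fold change was 0.27 over the 6 tested members and 0.03 over all tested genes.

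MT2A, the most abundant human metallothionein transcript in many tissues, was at 293, 301 and 320.2 CPM in the 3 parental libraries. In the GlnIND libraries it was at 665, 590.0 and 604 CPM. Every GlnIND library lay above every parental library, as at 33.7% of all tested genes; ranges were apart in either direction at 65% of them. The mean rose from 305 ± 14.0 to 619.5 ± 39.8 CPM (SD, n = 3 each; log2 fold change 1.02, SE 0.069, edgeR adjusted p = 2.53e-06), or 2.03-fold. The values rest on 17329 counts in the parental and 44734 in the GlnIND group. A log2 fold change at least as high was found at 1398 of the tested genes (10.0%).

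MT1X, a metallothionein of the MT1 group at the far end of the cluster from MT2A, was at 39.8, 32.2 and 38.3 CPM in parental libraries. It was at 80.5, 77.7 and 72.6 CPM in GlnIND libraries, with no overlap between the groups. The mean rose from 36.8 ± 4.03 to 76.9 ± 4.01 CPM (SD, n = 3 each; log2 fold change 1.06, SE 0.094, edgeR adjusted p = 1.42e-05), or 2.09-fold. MT2A and MT1X therefore rose by nearly the same factor in this fit, and at 9.84% of tested genes the call was higher with a fold above 2. With a trend over GC content removed they differed more, MT2A at a log2 fold change of 0.76 (SE 0.093) and MT1X at 0.99 (SE 0.088). With a trend over gene length removed they were at 0.93 and 0.94. Neither passed edgeR's glmTreat test of a change beyond 1 on the log2 scale (adjusted p = 1 for MT2A and 0.805 for MT1X).

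MT1E was at 96.1, 84.5 and 90.5 CPM in parental libraries and at 115, 101 and 111 CPM in GlnIND libraries. The groups did not overlap, but the lowest GlnIND library stood only just above the highest parental one. The mean rose from 90.4 ± 5.76 to 109 ± 7.23 CPM (SD, n = 3 each; log2 fold change 0.27, SE 0.077, edgeR adjusted p = 0.0134). This call was lost without parental 2 (log2 fold change 0.21, adjusted p = 0.0852), GlnIND 1 (0.22, 0.0782) or GlnIND 3 (0.25, 0.0615). It was also lost with a trend over GC content removed (0.16, 0.124) and with a trend over gene length removed (0.16, 0.182). MT2A and MT1X kept their call in all 6 fits that left out a library, with log2 fold changes of 0.96 to 1.05 for MT2A and 0.96 to 1.11 for MT1X.

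The remaining metallothionein members were low. MT1F had 21 to 44 counts in a library, above the floor of 6, and was at 1.09, 1.32 and 1.09 CPM in parental and 1.17, 1.83 and 1.19 CPM in GlnIND libraries. These ranges overlapped, and MT1F was not called (log2 fold change 0.26, SE 0.29, edgeR adjusted p = 0.470). MT1M had 8, 4 and 7 counts in the parental libraries and 0, 0 and 1 in the GlnIND libraries. Its parental values, 0.397, 0.229 and 0.364 CPM, all lay above the GlnIND values, but each group was near the floor of 6 counts per library. The ratio of parental to GlnIND counts, 19 against 1 scaled to library size, was 24.2. An exact 95% Clopper-Pearson interval on halved counts, each rounded up, was 1.81 to 552 and covers counting error only. Rounding up kept the single GlnIND count whole, so this interval belongs to a smaller ratio than 24.2. Without a filter on low counts MT1M was tested and was lower by edgeR (log2 fold change -4.11, SE 1.21, adjusted p = 0.0102). MT1G had 0 counts in all 6 libraries, and a count of 0 allows a level of up to the floor.

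**Figure D1:**
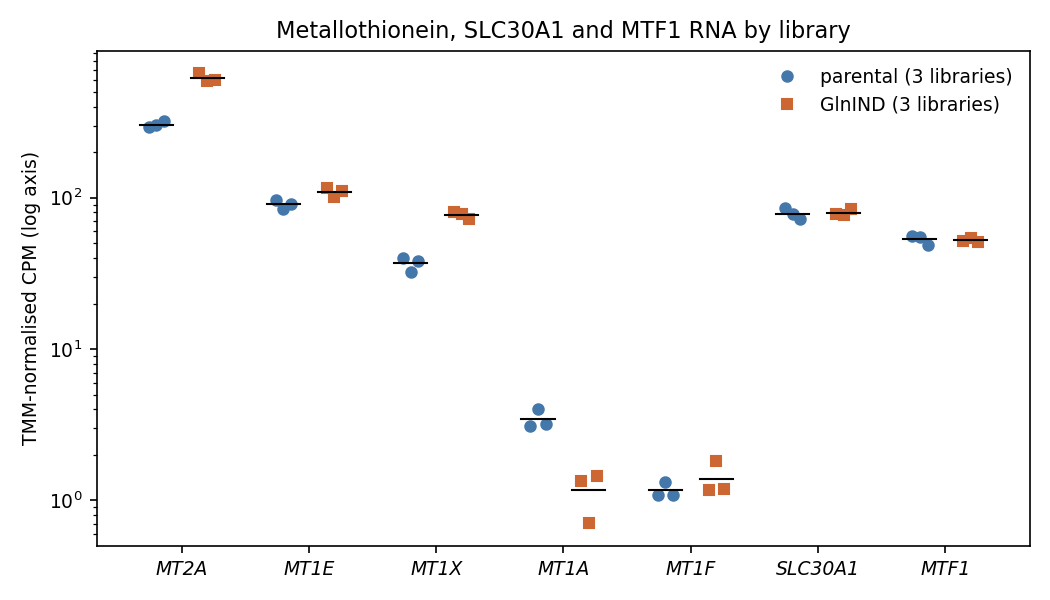
TMM-normalised CPM (log axis) of MT2A, MT1E, MT1X, MT1A, MT1F, SLC30A1 and MTF1 in each of 3 parental libraries (circles) and 3 GlnIND libraries (squares), with group means as lines. The groups stand apart at MT2A, MT1X and MT1A, just clear each other at MT1E, and overlap at MT1F, SLC30A1 and MTF1.

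Levels of different genes were compared per length, as CPM per kilobase of one GENCODE v29 transcript of each gene. MT2A stood highest, at 388 in parental and 788 in GlnIND cells. MT1E followed in parental cells at 124, above MT1X at 81.7. In GlnIND cells MT1X was at 171 and MT1E at 149.7. This order of MT1X and MT1E rests on the transcript chosen for each, 450 bases for MT1X and 729 for MT1E, and on reads that MT1X may share, as given below. Both SLC30A1 (14.3 and 14.6) and MTF1 (6.68 and 6.55) lay well below them, and MT1F was at 1.69 and 2.02.

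The unequal change showed in the makeup of the metallothionein pool. The 6 metallothionein members together were at 431, 419 and 450.5 CPM in parental libraries and at 862, 771 and 788 CPM in GlnIND libraries. The mean sum went from 433 ± 15.9 to 807 ± 48.4 CPM (SD, n = 3 each), 1.86 times as much, which is 0.0433% and 0.0807% of a library. MT2A made up 70.3 ± 1.96% of the sum in parental and 76.8 ± 0.321% in GlnIND cells. MT1E made up 20.9 ± 1.26% and 13.5 ± 0.463%, and MT1X 8.48 ± 0.784% and 9.55 ± 0.468%. Without MT2A the sum of the other 5 went from 129 ± 9.65 to 187 ± 8.59 CPM (SD, n = 3 each), 1.46 times as much.

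Ratios within a library do not depend on scaling between libraries. They were chosen after the values had been seen. The ratio of MT2A to MT1E counts was 3.05, 3.56 and 3.54 in parental libraries and 5.76, 5.83 and 5.46 in GlnIND libraries. The ratio of MT1X to MT1E was 0.415, 0.381 and 0.423 against 0.697, 0.767 and 0.656. Both pairs of ranges were apart, and an exact two-sided permutation test gave p = 0.1 for each, the smallest that 3 libraries against 3 allow. The ratio of MT2A to MT1X was 7.36, 9.34 and 8.36 in parental and 8.25, 7.59 and 8.32 in GlnIND libraries, and these overlapped (exact permutation p = 0.7).

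**Figure D2:**
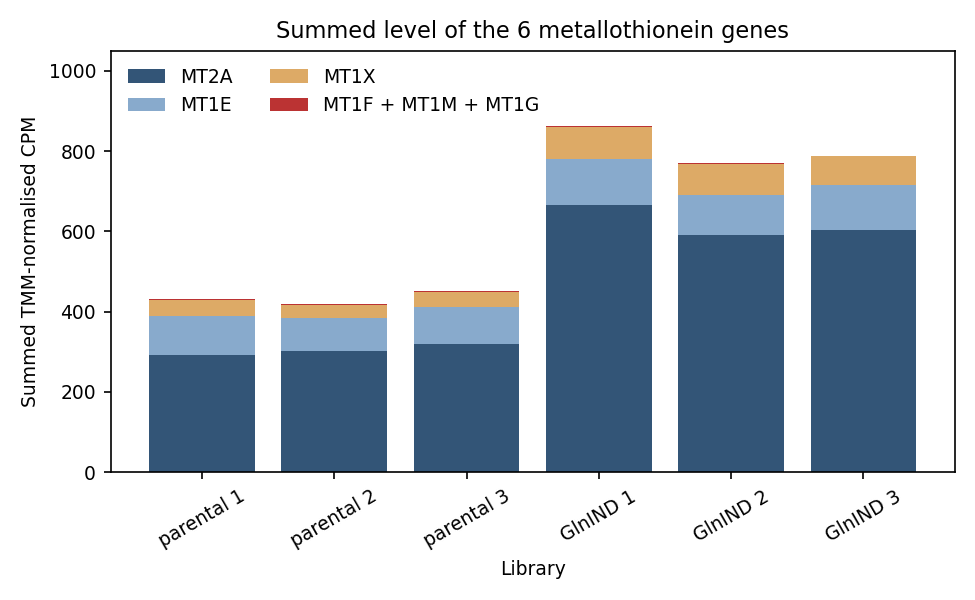
Summed TMM-normalised CPM of the 6 metallothionein members in each library, stacked by gene. The 3 GlnIND bars reach 771 to 862 CPM and the 3 parental bars 419 to 450.5 CPM, with MT2A as the tallest segment in all 6.

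Metallothionein transcripts resemble each other, and how the authors' counting divided shared reads is not given in the sources used here. Of the 50-base windows of the MT2A transcript 4.88% also occurred in a transcript of another gene, against 10.6% for MT1E, 3.59% for MT1F, 7.05% for MT1M, 20.2% for MT1G and 45.1% for MT1X. With 100-base windows the share was 0 for these genes except MT1X, at 19.1%. The 100-base MT1X windows were shared with AC026461.1 alone, a transcript that overlaps MT1X on the same strand and has no row in the count table. The 50-base windows were shared most often with AC026461.1, MT1G and MT1XP1. MT1X thus had the largest shared portion of the 3 called members. Windows shared with an overlapping transcript may be the same bases of the genome, so this portion does not measure reads divided or lost. How uncertain the MT1X level is on this account was not tested. The sum over all 16 metallothionein rows of the table, which depends less on the division of reads among them, was 437 ± 15.5 CPM in the parental group and 808 ± 48.7 CPM in the GlnIND group (SD, n = 3 each).

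Of 11 further metallothionein genes and pseudogenes, 10 had a row. MT1A, another zinc-binding member of the cluster, was the 1 gene among them high enough to be tested, and it went the other way. It was at 3.12, 4.004 and 3.22 CPM in parental and 1.35, 0.707 and 1.46 CPM in GlnIND libraries. Every GlnIND library lay below every parental one. The mean fell from 3.45 ± 0.482 to 1.17 ± 0.405 CPM (SD, n = 3 each; log2 fold change -1.55, SE 0.28, edgeR adjusted p = 0.00116), from 195 counts to 85. MT1H, MT1HL1, MT1L, MT1JP and MT1DP had at most 5 counts in a group. MT1B, MT1IP, MT3 (the brain metallothionein) and MT4 (that of stratified epithelia) had 0 counts in all 6 libraries.

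Neither member that senses or exports zinc was called. MTF1 was at 56.2, 55.0 and 48.6 CPM in parental and 51.4, 54.1 and 51.2 CPM in GlnIND libraries. The means were 53.3 ± 4.12 and 52.2 ± 1.65 CPM (SD, n = 3 each; log2 fold change -0.03, SE 0.082, edgeR adjusted p = 0.793). SLC30A1 was at 85.0, 77.6 and 72.5 CPM in parental and 78.3, 76.5 and 84.6 CPM in GlnIND libraries. Its means were 78.4 ± 6.31 and 79.8 ± 4.27 CPM (SD, n = 3 each; log2 fold change 0.03, SE 0.081, edgeR adjusted p = 0.798). The groups overlapped at both genes. Across all alternatives the log2 fold change stayed between -0.11 and 0.13 for MTF1 and between -0.05 and 0.23 for SLC30A1. The upper end for SLC30A1 came with the GC trend removed, where it was called higher (0.23, adjusted p = 0.00562). The direction of MTF1 rests on the scaling, as given in the paragraph on scaling.

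Genes beside the metallothionein cluster were higher in GlnIND cells as well. The 20 tested genes on each side of the cluster, in RefSeq order and without metallothioneins, had a median log2 fold change of 0.60, or 1.51-fold. Of these 40 neighbours 30 were called higher, 2 lower and 8 were not called. The median was 0.67 with 10 genes on each side, of which 17 of 20 were higher, and 0.46 with 40 on each side, of which 54 of 80 were higher. The 40 genes around MTF1 had a median of -0.02 with 8 higher and 13 lower, and those around SLC30A1 a median of -0.17 with 6 higher and 17 lower. Beside these counts, 28.4% of all tested genes were called higher and 27.9% lower. Whether the shift of the surrounding genes bears on the metallothioneins was not tested.

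The genes next to the cluster have varied functions. On the MT2A side BBS2, a subunit of the complex that carries cargo to the cilium, rose from 14.1 ± 1.52 to 36.0 ± 1.79 CPM (log2 fold change 1.35), and OGFOD1, a ribosomal prolyl hydroxylase, from 93.7 ± 1.63 to 159 ± 4.92 CPM (0.77). NUDT21, a factor of mRNA cleavage and polyadenylation, rose by 0.50 on the log2 scale. GNAO1, a G protein alpha subunit, went from 14 counts in the parental group to 1888 in the GlnIND group, or from 0.243 ± 0.156 to 26.1 ± 2.66 CPM (SD, n = 3 each). On the MT1X side NUP93, a nuclear pore protein, rose from 83.6 ± 6.48 to 136 ± 0.739 CPM (0.70). HERPUD1, NLRC5 and CPNE2 rose by 0.41, 0.81 and 0.40, and the call of CPNE2 was lost without GlnIND 2 (adjusted p = 0.0536). PSME3IP1 was not called (log2 fold change 0.15, edgeR adjusted p = 0.200). It was called higher under upper-quartile factors (0.24, 0.0411), under library totals (0.30, 0.0125) and without parental 1 (0.25, 0.000119). The 2 neighbours that fell were CX3CL1, a membrane-bound chemokine (log2 fold change -4.67), and ADGRG1, an adhesion receptor (-1.41).

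Within this stretch 9 of the 40 neighbours had a higher log2 fold change than MT2A and 8 a higher one than MT1X. In contrast, 32 of 40 stood above MT1E and 32 above MT1F. With the median shift of its own neighbours removed, MT2A was at a log2 fold change of 0.43 (edgeR adjusted p = 0.000756) and MT1X at 0.47 (0.00263), both still called higher. MT1E turned to -0.33 and was called lower (0.0064), and MT1F turned to -0.33 without a call (0.377). MT1A stood at -2.15. The removed shift was treated as known, so these p-values leave out its own error.

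**Figure D3:**
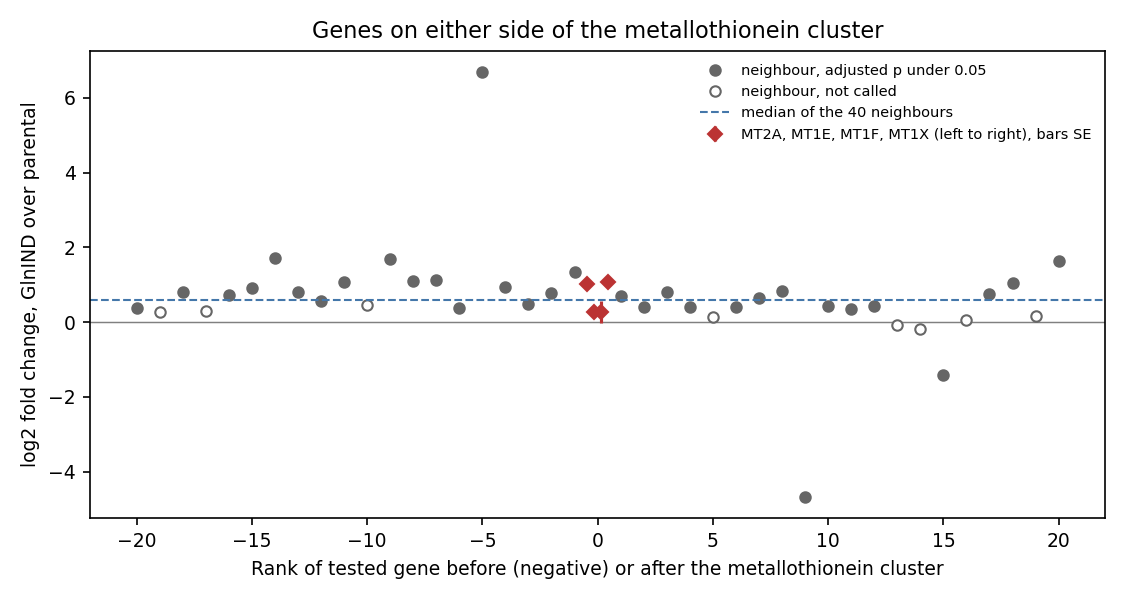
Log2 fold change (GlnIND over parental) of the 20 tested genes on each side of the metallothionein cluster, by rank of distance in gene order, with MT2A, MT1E, MT1F and MT1X as diamonds (bars: SE). Filled points were called and open ones were not; 36 of 40 neighbours lie above 0, around the dashed median of 0.60, with MT2A and MT1X above it and MT1E and MT1F below it.

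Other zinc transporters moved in both directions. Of 9 further SLC30A genes, whose products mostly move zinc out of the cytosol, 6 were tested. Of these 2 rose and 4 fell, with a median log2 fold change of -0.22. Over all tested genes 28.4% were called higher and 27.9% lower. SLC30A4, which loads zinc into vesicles, was at 7.94, 6.12 and 7.02 CPM in parental and 18.9, 17.6 and 17.7 CPM in GlnIND libraries (log2 fold change 1.36, SE 0.13, edgeR adjusted p = 1.90e-05). SLC30A3, known from synaptic vesicles, stood at 0.691 ± 0.273 and 1.88 ± 0.294 CPM (1.42, adjusted p = 0.00448). SLC30A6 and SLC30A7, of the secretory pathway, fell from 123 ± 1.22 to 86.0 ± 4.30 CPM and from 108 ± 9.94 to 75.5 ± 4.98 CPM. SLC30A5, a Golgi transporter, and SLC30A9 fell by 0.19 and 0.24 on the log2 scale. These calls were less stable, and 2 genes of the list fell instead of 4 without GlnIND 2, without GlnIND 3, with upper-quartile factors, with library totals or with the GC trend removed.

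Of 14 SLC39A genes, whose products bring zinc into the cytosol, 10 were tested. Of these 3 rose, 5 fell and 2 were not called, with a median log2 fold change of -0.23. The shares over all tested genes were 28.4% higher and 27.9% lower. SLC39A4, the zinc importer mutated in acrodermatitis enteropathica, fell from 10.8 ± 0.560 to 6.21 ± 0.440 CPM (SD, n = 3 each). SLC39A8, a zinc and manganese importer, fell from 118 ± 6.53 to 75.5 ± 4.91 CPM. The SLC39A4 and SLC39A8 calls held in each alternative other than the test against a log2 change of 1. SLC39A1, SLC39A6 and SLC39A10 fell by less, by 0.30, 0.22 and 0.24 on the log2 scale, and had adjusted p values from edgeR of 0.0159, 0.0308 and 0.0497. SLC39A9 was at 0.22, SLC39A11 at 0.40 and SLC39A14, a zinc, iron and manganese importer, at 0.28 (edgeR adjusted p = 0.00859, 0.0386 and 0.0272). Each of these 6 lost its call when at least 1 library was left out. The genes that fell numbered 3 without parental 2, GlnIND 1 or GlnIND 3 or with the neighbour shift removed, and 2 with upper-quartile factors or library totals. The genes that rose numbered 1 without GlnIND 1, GlnIND 2 or GlnIND 3, 2 without parental 3 and 0 with the neighbour shift removed. SLC39A7 had at most 2 counts in any library, which in this table is not by itself a sign of low expression.

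**Figure D4:**
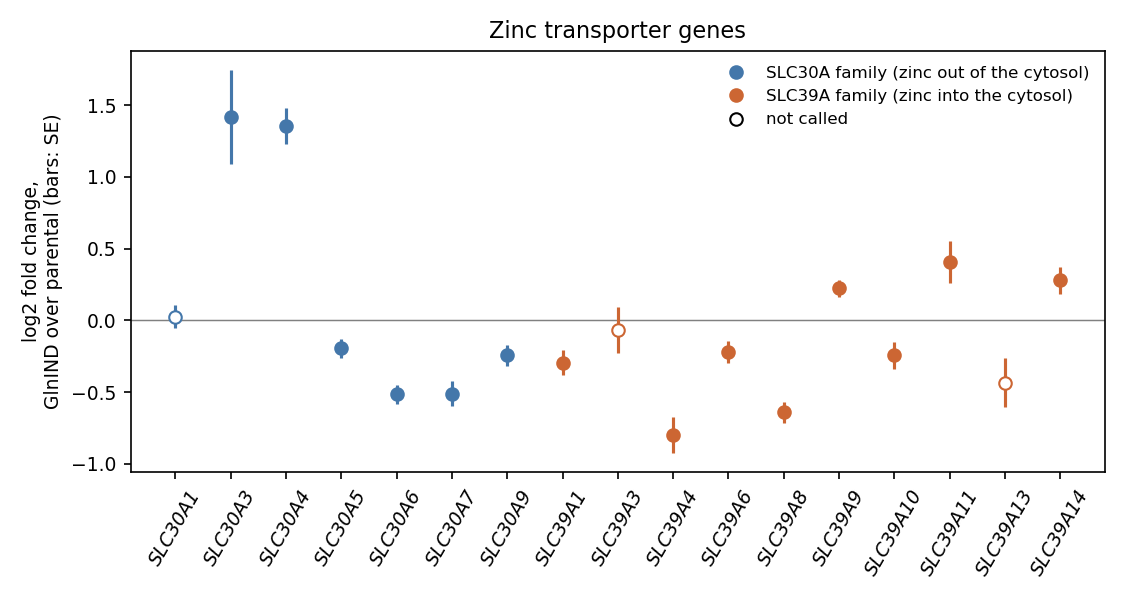
Log2 fold change (GlnIND over parental, bars: SE) of the tested SLC30A and SLC39A zinc transporter genes, with open points for those not called. SLC30A3 and SLC30A4 stand highest at 1.42 and 1.36, SLC30A1 lies at 0.03, and SLC39A4 is lowest at -0.80.

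Metallothioneins also bind copper. Of 10 copper-handling genes 8 were tested, of which 3 rose, 2 fell and 3 were not called, with a median log2 fold change of 0.04. Among all tested genes 28.4% were called higher and 27.9% lower. ATP7B, a copper-exporting ATPase, was at 1.59, 1.66 and 2.34 CPM in parental and 6.46, 6.53 and 5.87 CPM in GlnIND libraries (log2 fold change 1.75, SE 0.19, edgeR adjusted p = 5.68e-05). Its relative ATP7A rose from 13.3 ± 1.71 to 19.2 ± 1.92 CPM, and CCS, the chaperone that loads copper onto superoxide dismutase, by 0.46 on the log2 scale. SLC31A1, the high-affinity copper importer, fell from 69.5 ± 6.44 to 43.0 ± 4.50 CPM (SD, n = 3 each). ATOX1, the chaperone that hands copper to both ATPases, fell by 0.24 on the log2 scale, with an adjusted p of 0.0461 from edgeR. The ATOX1 call was lost without any single library other than parental 1, with adjusted p values of 0.0775 to 0.141, and with upper-quartile factors (0.201). The CCS call was lost with the GC trend removed (adjusted p = 0.271) and with the neighbour shift removed, where it turned to -0.11 (0.476).

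Genes that respond to metals or oxidants did not share one direction. Of 12 such genes, all tested, 3 rose, 5 fell and 4 were not called, with a median log2 fold change of -0.22. A mix of directions was also found over all tested genes, with 28.4% called higher and 27.9% lower. HMOX1, heme oxygenase and a target of cadmium and heme, rose from 5.34 ± 1.04 to 7.70 ± 0.184 CPM (SD, n = 3 each). Its edgeR adjusted p of 0.0196 became 0.0587 without GlnIND 1, 0.0712 without GlnIND 2 and 0.0591 without GlnIND 3. With the neighbour shift removed the adjusted p was 0.0727 for HMOX1 and 0.335 for DNAJB1. The heat shock genes DNAJB1 and HSPA1A rose by 0.41 and 1.04 on the log2 scale, HSPA1A from only 32 counts to 84. HSPA1A shares much of its sequence with HSPA1B, which was higher in level, at 12.3 ± 3.76 and 9.98 ± 1.40 CPM. HSPA1B was not called (log2 fold change -0.31, edgeR adjusted p = 0.250), but was called lower without parental 3 (-0.55, 0.0151). The HSPA1A call was lost without any single library other than parental 3, with DESeq2 (adjusted p = 0.0657) and with the GC trend removed (edgeR, 0.0583). The count of rising genes in this list was 2 without parental 2 and 1 without GlnIND 1, GlnIND 2 or GlnIND 3. It was 5 under library totals and 0 once the neighbour shift was removed. The cystine exchanger gene SLC7A11 fell by 1.74, the glutathione synthesis subunit gene GCLM by 0.44, TXNRD1 by 0.40, HSPH1 by 0.40 and NQO1 by 0.26. With the neighbour shift removed 3 genes fell, with TXNRD1 at -0.10 and HSPH1 at 0.05, neither called. NQO1 missed the threshold in fits lacking parental 2 (adjusted p = 0.0512), GlnIND 1 (0.0573) and GlnIND 3 (0.0638). It also missed it with upper-quartile factors (0.0950) and library totals (0.275). The falling genes numbered 6 with the GC or length trend removed and without parental 1 or parental 3. SRXN1, uncalled in the main fit, was called lower without parental 1 (edgeR adjusted p = 7.24e-06) and with the GC trend removed (0.00401). GCLC, also uncalled, was called higher with upper-quartile factors (0.0298) and library totals (0.0101).

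Glucocorticoid-induced genes, together with the receptor gene NR3C1, were listed because metallothioneins are known targets of the glucocorticoid receptor. Of 8 listed genes 7 were tested, of which 4 rose, 1 fell and 2 were not called, with a median log2 fold change of 0.51. For comparison, 28.4% of all tested genes were called higher and 27.9% lower. DUSP1, a MAP kinase phosphatase, was at 11.1, 12.8 and 11.5 CPM in parental and 24.2, 23.9 and 26.8 CPM in GlnIND libraries (log2 fold change 1.08, SE 0.11, edgeR adjusted p = 2.73e-05). PER1, a clock repressor, rose by 0.76, SGK1, a kinase, by 0.53 and KLF9, a transcription factor, by 0.51 on the log2 scale, though KLF9 was not called without GlnIND 3 (adjusted p = 0.0521). FKBP5, a chaperone of the receptor, fell from 140 ± 22.5 to 96.3 ± 4.04 CPM (SD, n = 3 each). TSC22D3 was at 8.22 ± 3.33 and 8.60 ± 1.25 CPM and was not called, nor was the receptor gene NR3C1 (log2 fold change 0.16, edgeR adjusted p = 0.0603). NR3C1 was called higher without parental 1 (0.20, 0.000263), under upper-quartile factors (0.25, 0.00613) and under library totals (0.31, 0.00149). The same call came with the GC trend (0.33, 0.000211), the neighbour shift (0.22, 0.0193) or the length trend (0.17, 0.0270) removed.

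The 5 genes outside all lists whose levels across the 6 libraries were most like those of MT2A were ADAMTS16, TRMT12, KREMEN1, FIBP and PHKA2. Likeness was the root mean square difference of log2(CPM + 0.1) values centred on each gene's mean, over 12728 genes, and it was 0.0435 to 0.0584 for these 5. MT1X was at 0.110 and would rank 98, MT1E at 0.384 and would rank 3100, and MT1F at 0.478 and would rank 4925. FIBP, a binding partner of acidic fibroblast growth factor, went from 58.5, 63.9 and 67.2 CPM in parental to 132, 131 and 125 CPM in GlnIND libraries. Since the measure follows the difference between the groups, it mainly picks genes with a fold change near that of MT2A.

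Scaling moved all log2 fold changes together. TMM factors gave a median of 0.03 over all genes, upper-quartile factors one of 0.12 and library totals alone one of 0.18. The numbers of genes called higher and lower were 3965 and 3888 with TMM, 4749 and 3204 with upper-quartile factors, and 5356 and 2810 with totals. MT2A stood at 1.02, 1.11 and 1.18 under these scalings, MT1X at 1.06, 1.16 and 1.22, and MT1E at 0.27, 0.36 and 0.43. MTF1 turned from -0.03 to 0.06 and 0.13, and SLC30A1 went from 0.03 to 0.12 and 0.18, with no call for either. Over all 21 alternatives MT2A and MT1X were called higher in 20 each, MT1E was called higher in 13 and lower in 1, and MT1F was called in 0. The matrix, counted among the 21, held the same counts within each group and so had to repeat the main fit.

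**Figure D5:**
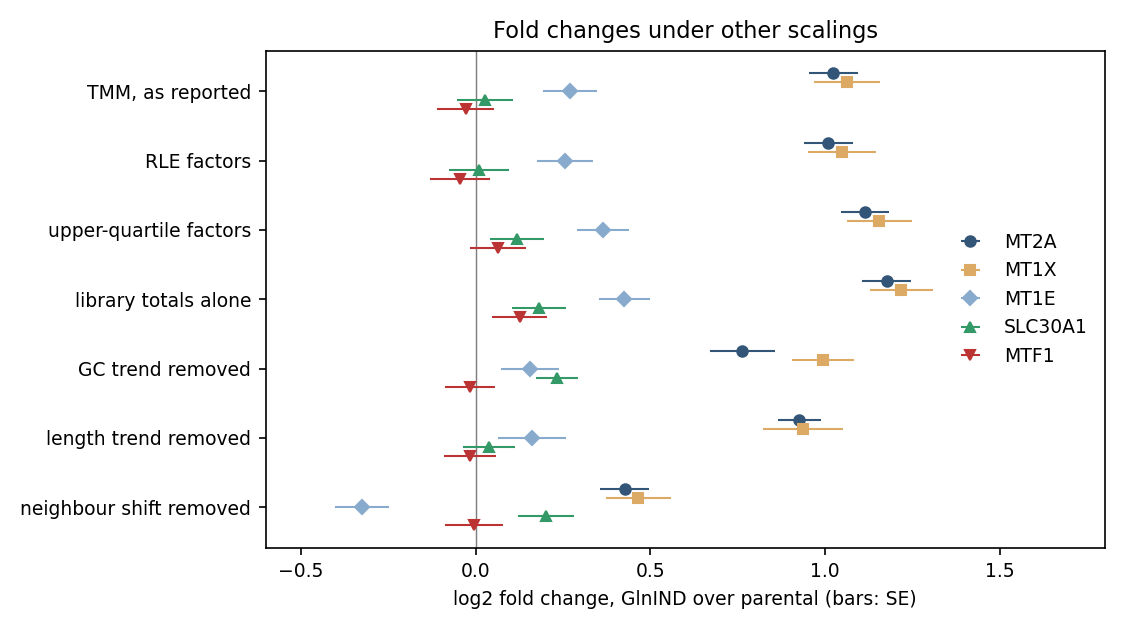
Log2 fold change (GlnIND over parental, bars: SE) of MT2A, MT1X, MT1E, SLC30A1 and MTF1 under TMM factors, other scalings, and with GC, length or neighbour shifts removed. MT2A and MT1X stay right of 0 in all 7 settings, at 0.43 to 1.22, while MT1E crosses to -0.33 with the neighbour shift removed.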

How the data were processed

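The authors deposited unnormalised counts of reads for each gene symbol, as a table for each library and as a matrix that joins them. FastQC, STAR, featureCounts and DESeq were used and the genome build was hg19, per the submitters' processing notes. Versions, the annotation, the strand setting and the handling of multiply mapped reads are not given in the sources used here. Reads in near-identical, overlapping or antisense genes may therefore be divided or lost. The matrix held the same values as the tables with replicates 1 and 3 exchanged within each group. Replicate numbers follow the tables.

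Counts were tested two-sided by glmQLFTest after glmQLFit in edgeR 4.0.16 (R 4.3.3, TMM factors, filterByExpr with a minimum count of 10 and a minimum total of 15). The group was the only term, and p-values were adjusted by Benjamini-Hochberg over 13949 tested genes, with 14316 not tested. The common biological coefficient of variation was 9.79%. Gene order and promoters came from RefSeq, and transcript lengths, GC content and shared windows from GENCODE v29. Length and GC content were matched for 96.0% of tested genes and a position for 98.8%. Counting intervals are exact 95% Clopper-Pearson intervals on halved counts, each rounded up.

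Named genes were the 8 members. From each list the rule took the 2 called genes in each direction that changed most, at a mean CPM of 1 or more, and any metallothionein with at least 6 counts. It added the 5 tested genes nearest the cluster on each side and the 5 most like MT2A. A few genes taken by the rule are not reported here. Genes named beyond this rule were chosen after their values were seen. The members and lists were chosen with earlier results of these data known. Alternatives were other scalings and filters, each library left out, a block for the replicate number, limma-voom (limma 3.58.1), DESeq2 1.42.0, robust dispersion, other thresholds, the matrix, and removal of GC, length or neighbour shifts.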

Additional observations from a re-analysis of the deposited data

How the results depend on the processing

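Of the values under alternatives for the 6 tested members, 109 kept their direction and side of the threshold, 9 lost the call, 1 gained it and 7 turned. Those that kept include the fit to the matrix, which could only repeat the main values. With the shift of neighbouring genes removed, MT1E turned to -0.33, MT1F to -0.33, NUDT21 to -0.17, HERPUD1 to -0.12, CPNE2 to -0.12 and PSME3IP1 to -0.42 on the log2 scale, and the median around the cluster was 0.010 by construction. MTF1 turned to 0.064 with upper-quartile factors, 0.13 with library totals and 0.0048 without parental 1. SLC30A1 turned to -0.050 without parental 3 and -0.028 without GlnIND 3. Leaving out each library gave -0.11 to 0.0048 for MTF1 and -0.050 to 0.080 for SLC30A1. The cause of these turns was not tested, and all MTF1 and SLC30A1 values among them were uncalled. The median around the cluster was 0.69 with upper-quartile factors, 0.75 with totals and 0.46 with 40 genes on each side. The log2 ratio of summed metallothionein means, 0.90, was 1.05 with totals and 0.54 without MT2A. Against a log2 fold change of 1, glmTreat called 0 members higher and, over all genes, 656 higher and 350 lower. The members called lower numbered 1 without a filter (MT1M) and 1 with the neighbour shift removed (MT1E). When each library was left out in turn, 2 to 3 members were called higher, 3151 to 4601 genes were higher and 3337 to 4679 lower. Depth limits MT1M and MT1G, whose counts lay near or under the floor, and MT1F, with 21 to 44 counts in a library.

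Replicate numbers did not pair the libraries. Deviations of same-numbered libraries from their group means correlated at -0.08, 0.03 and -0.07. With the replicate number as a block 3 members rose, 0 fell, and 3719 genes were called higher and 3584 lower. The median around the cluster was then 0.61. MT1E stood at 0.27 (adjusted p = 0.0161), and ATOX1 (adjusted p = 0.0948), SLC30A5 (0.0704), SLC39A6 (0.0709), SLC39A10 (0.0847) and HSPA1A (0.0750) were not called.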
